A study of Sus scrofa with 13 samples.

Results

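The genes described here are those of the cell cycle and of DNA replication in pig liver, measured by bulk RNA sequencing before ischemia and after reperfusion. They were taken as the rows of the deposited count table whose gene name is on a list of cyclins, cyclin-dependent kinases, E2F factors, replication factors and mitotic genes, which gave 36 genes of 35670 in the table. All 36 passed the filter on low counts and were among the 16481 genes tested. They were put in 4 classes by their role, with 5 genes of G1 entry, 4 of the step from G1 to S phase, 12 of DNA replication and 15 of G2 and mitosis. No row carries the names MKI67, RRM2 or AURKA, which are not analysed here, and CCNE1 was found through its gene identifier alone and is given apart.

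The animals were female Yorkshire pigs. The 2 baseline libraries are liver biopsies taken before any vascular exclusion. The 3 ischemic controls had 45 min of complete vascular exclusion of the liver and 6 h of reperfusion and received no cells. The 8 infused livers had the same ischemia and reperfusion and were given 3 M (mega) human bone marrow mesenchymal stromal cells (BM-MSC) per kg, 15 min after reperfusion, 4 through the hepatic artery (arterial infusion) and 4 through the portal vein (portal infusion). The reads were mapped to the pig genome, and reads from the infused human cells were not set apart. The labels do not say whether baseline biopsies come from animals that also gave a later library, and p-values measure the spread between these libraries. Libraries are named by group and the replicate number of their label, such as baseline 1a or portal 4.

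Most hepatocytes of an adult liver rest outside the cell cycle and can return to it after tissue loss or injury. Cytokines and immediate early transcription factors prime the cells, growth factors then act through D cyclins with CDK4 and CDK6 to release E2F factors from the retinoblastoma proteins, and E2F factors turn on cyclin E and the genes that load and fire replication origins. Genes of mitosis follow later in the same cycle. The comparison asks which of these steps showed at 6 h of reperfusion, which is early for liver regeneration.

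Total counts on genes were between 18975413 and 35949178 per library, and between 13581 (portal 1) and 20282 (control 3) genes had at least 1 read. The 8 hepatocyte markers checked, among them albumin, were present in all 13 libraries. Their summed level, in counts normalized as below, ran from 845931 in portal 4 to 2736090 in baseline 2, and was 1187140 in baseline 1a. On the first principal component of the 11 libraries at 6 h, control 2, arterial 1, portal 1 and portal 4 lay apart from the other 7. These 4 libraries held the 4 highest values at 6 h for 3 of the 36 genes (8.33%, against 9.17% of all genes tested) and the 4 lowest for 3 (8.33%, against 10.6%). Levels below are counts normalized for library size by size factors, which compare libraries and not genes of different length. In bulk tissue, fewer cells of a type and less RNA per cell cannot be told apart.

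None of the 36 genes passed edgeR's quasi-likelihood test at an adjusted p of 0.05 in any of 6 comparisons, where 0.0% of all genes tested passed in each. Baseline was compared with the ischemic controls and with all 11 reperfused livers. The 8 infused livers were compared with the ischemic controls, together and by route, and arterial with portal infusion. DESeq2 and limma voom also called 0 of the 36 genes. At an unadjusted p under 0.05, edgeR counted 1 of the 36 genes, CDK6 in reperfused livers against baseline, where 4.78% of all genes tested passed. In ischemic controls against baseline the count was 0 of 36, where 4.37% of all genes passed, and in infused livers against controls it was 0 of 36, where 2.14% passed. It was also 0 in the arterial infusion group against controls (1.57% of all genes), in portal infusion against controls (2.79%) and in arterial against portal infusion (2.4%).

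**Figure D1:**
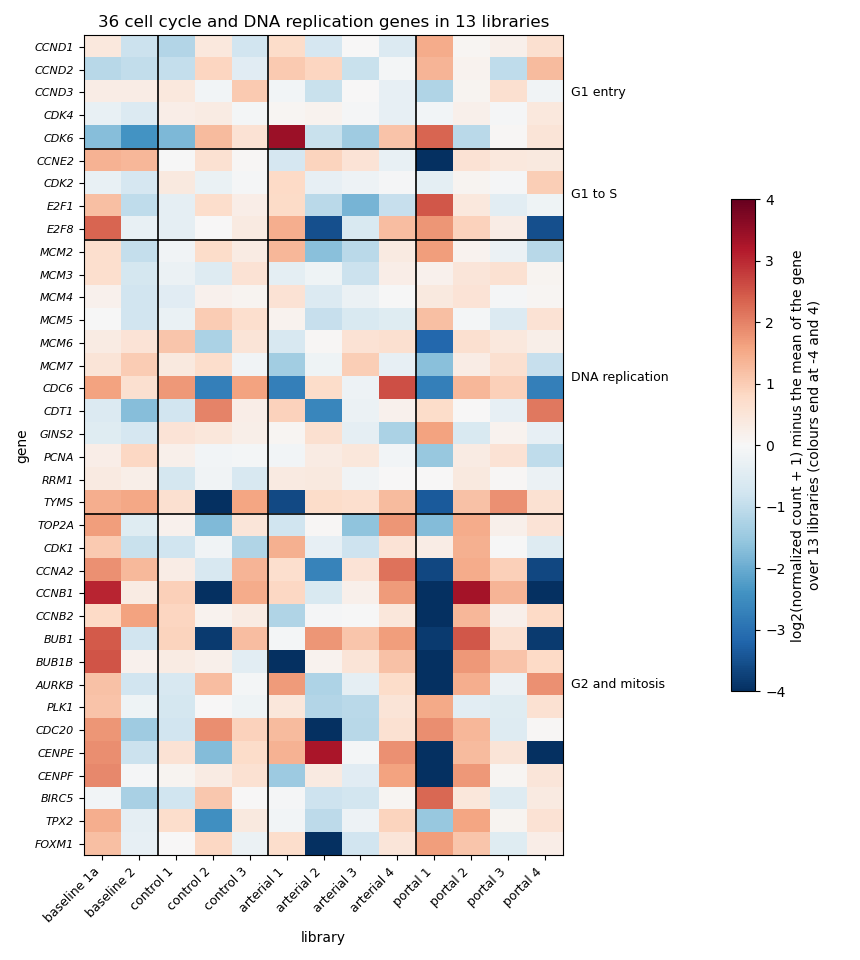
Deviation of each of the 36 genes (vertical axis, by class) from its own mean in each library (horizontal axis, black lines between groups), as log2(normalized count + 1), with red above and blue below the mean. Baseline 1a and portal 2 are red over 14 of 15 genes of G2 and mitosis, and portal 1 has 10 of the 36 genes at 0 reads.

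Of the 4 classes, G1 entry held the single gene with an unadjusted p under 0.05. Of its 5 genes 3 were above both baseline libraries in 10 of 11 reperfused livers. They were the only 3 of the 36 genes (8.33%), near the 6.98% of all genes tested that were above both in at least 10. This cutoff sets G1 entry little apart, since CDK2, CDT1 and GINS2 of other classes were above both in 9 of 11. CCND1 and CCND3 of G1 entry were above both in 3 of 11. CDK4, the main catalytic partner of D cyclins (chromosome 5, 23039206 to 23041959), had 1483 and 1262 normalized counts at baseline and 2184, 2309.7 and 1733 in ischemic controls. It had 1941, 2039, 1768 and 1471 after arterial infusion and 1703, 2113, 1759 and 2432 after portal infusion. Of the 11 reperfused livers 10 were above both baseline libraries, the exception being arterial 4. The mean was 2076 ± 303 (SD, n = 3) in controls against 1372 ± 156 (SD, n = 2) at baseline, a log2 fold change of 0.59 (SE 0.36, 95% interval -0.19 to 1.37, edgeR adjusted p = 0.978). The two-sided exact permutation p was 0.2, which is the smallest that this test allows for 3 against 2 libraries. Infused livers differed from controls in CDK4 by -0.15 on the log2 scale, and the interval of -0.71 to 0.41 bounds a change in either direction to less than 1 unit.

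CDK6 is named for the second kinase of D cyclins, which dividing lymphocytes also use. RefSeq types the entry of this name (chromosome 9, 72510858 to 72765631) as a long non-coding RNA in this assembly, and the row was matched by its name. Among the 22 genes with reads in all libraries it had the largest ratio of highest to lowest value, 57.4. It stood at 57.9 and 35.9 normalized counts at baseline and at 54.6, 459 and 288 in ischemic controls. The arterial livers had 2059, 102, 70.6 and 421, and the portal livers 959, 89.7, 198 and 276. Again 10 of 11 reperfused livers were above both baseline libraries, here all but control 1, and arterial 1 and portal 1 were above every control. The reperfused livers against baseline gave a log2 fold change of 3.05 (SE 1.30, 95% interval 0.27 to 5.83), with an unadjusted p of 0.0339 and an edgeR adjusted p of 0.860. The exact permutation p was 0.0513, where 0.0256 is the smallest possible. Ischemic controls alone gave 2.46 (95% interval -0.42 to 5.34), and infused livers differed from controls by 0.89 (95% interval -1.13 to 2.90), a difference whose sign turned under 3 of the other settings tried.

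CCND1 encodes cyclin D1, the D cyclin that growth factors induce in hepatocytes (chromosome 2, 3621242 to 3633380). It had 1520.3 and 613 normalized counts at baseline and 502, 1511 and 659 in ischemic controls, so that the range of the controls took in most of that of baseline. The arterial livers had 1867, 698, 1143 and 775 and the portal livers 3133, 1173, 1290.2 and 1757. Portal infusion against controls gave a log2 fold change of 1.01 (95% interval -0.08 to 2.09, edgeR adjusted p = 1.00), with an exact permutation p of 0.171, and control 2 lay within the portal range. For all infused livers the difference from controls was 0.68 (95% interval -0.30 to 1.65). The change from baseline to controls was -0.30 (95% interval -1.56 to 0.95) and turned to 0.52 without baseline 1a.

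CCND3, cyclin D3 (chromosome 7, 37087336 to 37182462), was nearly equal in the baseline libraries, with 1537 and 1547 normalized counts. Controls had 1698, 1154 and 2567, arterial livers 1155, 674, 1279 and 989, and portal livers 541, 1354, 1947 and 1136. Infused livers averaged 1134 against 1806 in controls, a log2 fold change of -0.69 (95% interval -1.51 to 0.12, edgeR adjusted p = 1.00), and the groups overlapped. CCND2, cyclin D2, was picked for description after its values were seen. It had 34.7 and 38.0 normalized counts at baseline, below each of the controls with 38.8, 140.1 and 55.6, and 10 of 11 reperfused livers were above both baseline libraries. Controls against baseline gave 1.06 for CCND2 (95% interval -0.76 to 2.88).

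Blood cell markers also differed between these libraries, and not all in one way. The summed level of 8 markers of T and NK cells was 747 and 762 normalized counts at baseline, 589 to 2033 in controls, 870.4 to 1782 after arterial and 956 to 3357 after portal infusion. Control 1 had the lowest sum and the lowest CDK6 and CCND2 of the controls, and portal 1 the highest sum and the highest CDK6 and CCND2 of the portal livers. Single markers of this list went against the sum, since CD2 and IL7R were at 0 in portal 1, PRF1 and IL7R were at 0 in arterial 1, and IL7R was at 0 in control 2 and portal 4. The sum of 4 neutrophil markers, none of which was at 0, was 685 and 742 at baseline, 1133, 12004 and 3621 in controls, 8345, 998, 522 and 5080.1 after arterial infusion and 3548, 2502, 609.98 and 2238 after portal infusion. In controls and arterial livers this sum and the T and NK cell sum each ran in the same order of libraries as CDK6. Of the portal livers, portal 1 was highest in each sum. The orders differed elsewhere. Portal 2 had a higher neutrophil sum than portal 3 and portal 4, and a higher T and NK cell sum than portal 3. Its CDK6 was the lowest of the portal livers, 89.7. At baseline the library with the higher neutrophil and T and NK cell sums, baseline 2, had the lower CDK6, 35.9 against 57.9. The sum of 6 B and plasma cell markers was 610.4 in portal 1 and 1391 in portal 4. That of 3 erythroid markers ran from 994 in baseline 1a to 29058 in control 2. Its order in controls was not that of CDK6, with 2952 in control 1 and 1372 in control 3. The part of these cells in the result was not tested.

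**Figure D2:**
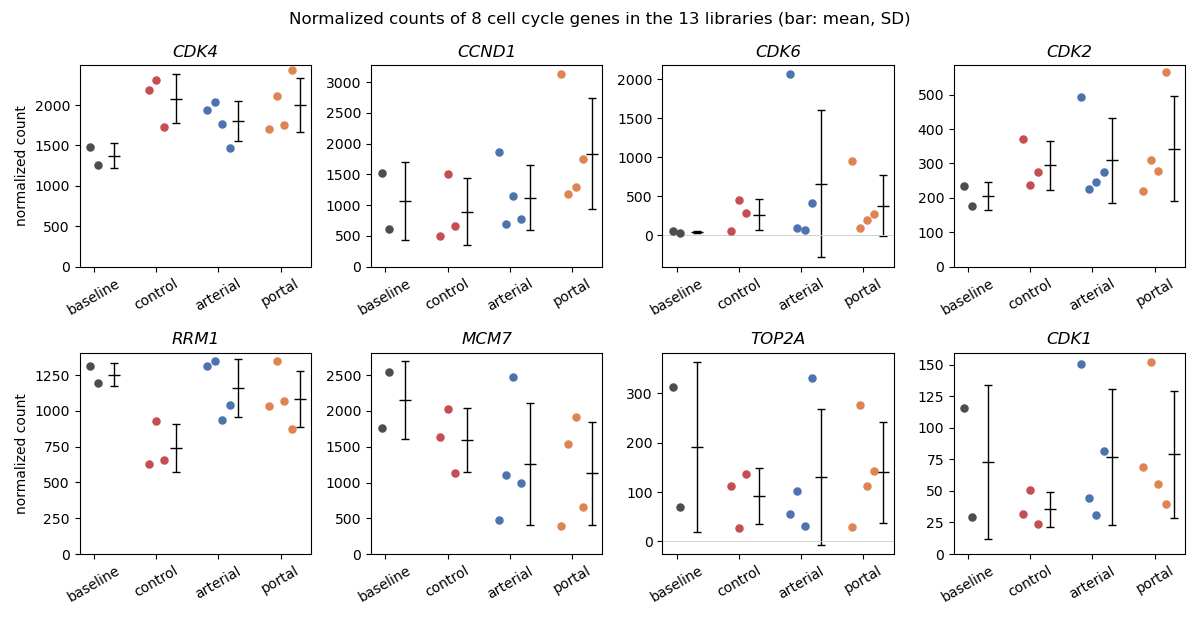
Normalized counts (vertical axes, each starting at or below 0) of 8 genes in every library of the 4 groups, one point per library, with the mean and SD as a bar. CDK4 and CDK6 are above both baseline libraries in 10 of 11 reperfused livers, RRM1 is lower in all 3 controls than at baseline, and TOP2A and CDK1 spread widely within each group.

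In the step from G1 to S phase, CCNE2 was lower and CDK2 higher in all 3 controls than in both baseline libraries. CCNE2, cyclin E2, which with CDK2 starts S phase (chromosome 4, 41802090 to 41821870), had 97.2 and 92.8 normalized counts at baseline. It had 35.6, 56.0 and 37.6 in controls, 22.3, 67.8, 53.5 and 29.3 after arterial infusion and 0, 54.2, 49.2 and 47.8 after portal infusion. All 11 reperfused livers were below both baseline libraries, and CCNE2 was the only one of the 36 genes whose groups did not overlap in that comparison, where 7.27% of all genes did not. The log2 fold change was -1.21 (SE 0.91, 95% interval -3.16 to 0.74), with an edgeR adjusted p of 0.868 and an exact permutation p of 0.0256. Its row lies over another annotated gene, INTS8, and the libraries do not keep strand, so reads of the overlap may belong to either. CCNE1, cyclin E1, did not share that pattern, with 98.0 and 52.7 at baseline, 131, 105 and 70.8 in controls and 0 to 130.3 in infused livers.

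CDK2 (chromosome 5, 21365723 to 21372170) had 234 and 177 normalized counts at baseline and 373, 236 and 275 in controls. After arterial infusion it had 493, 225, 246 and 275, and after portal infusion 219, 310.1, 277 and 566. All 3 controls and 9 of 11 reperfused livers were above both baseline libraries, with a log2 fold change of 0.52 in controls (95% interval -0.61 to 1.66, edgeR adjusted p = 0.978). E2F1, the transcription factor released when retinoblastoma protein is phosphorylated (chromosome 17, 37178587 to 37190118), had 67.9 and 13.7 at baseline and 22.2, 47.3 and 34.7 in controls. It had 50.0, 13, 7.30 and 14.7 after arterial and 165, 39.2, 21.1 and 25.8 after portal infusion. Arterial against portal infusion gave -1.49 for E2F1 (95% interval -3.40 to 0.41), which became -0.46 without portal 1. E2F8, a repressor of the same family, was at 0 reads in arterial 2 and portal 4 and ranged up to 56.3 in baseline 1a.

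Among genes of DNA replication, RRM1 came closest to a difference in more than one comparison. It encodes the large subunit of ribonucleotide reductase, which makes the building blocks of DNA (chromosome 9, 6026151 to 6065211). It had 1312 and 1195 normalized counts at baseline and 629, 929.8 and 659 in controls, so that all 3 controls were lower. Arterial livers had 1316, 1351, 933 and 1039, and portal livers 1035, 1347, 1066 and 876. Of the 8 infused livers, 7 were above every control and portal 4 was not.

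Controls against baseline gave a log2 fold change of -0.78 for RRM1 (SE 0.36, 95% interval -1.55 to 0.00), with an unadjusted p of 0.0501 and an edgeR adjusted p of 0.978. Infused livers against controls gave 0.59 (SE 0.28, 95% interval -0.02 to 1.19), with an unadjusted p of 0.0555 and an edgeR adjusted p of 1.00. The exact permutation p of that difference was 0.0242 before any correction for the number of genes. Arterial infusion alone gave 0.64 against controls (95% interval -0.02 to 1.31), and RRM1 was the only one of the 36 genes whose arterial and control libraries did not overlap, where 3.19% of all genes did not. Both comparisons use the same 3 controls. RRM1 is also expressed outside S phase, whereas its S phase partner RRM2 has no row here.

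MCM7, a subunit of the helicase that opens replication origins (chromosome 3, 8005890 to 8014047), had 1767 and 2537 normalized counts at baseline and 1637, 2028 and 1137 in controls. Arterial livers had 476, 1107, 2468 and 999 and portal livers 391, 1536, 1921 and 655. Of the reperfused livers 8 of 11 were below both baseline libraries, with the lowest values in portal 1, arterial 1 and portal 4. MCM7 in controls against baseline gave -0.43 (95% interval -1.93 to 1.06). PCNA, the sliding clamp of DNA polymerase (chromosome 17, 14137746 to 14142584), had 590.1 and 870.3 at baseline and 558, 448 and 457 in controls, all lower. It had 451, 609, 664 and 447 after arterial and 171, 605, 730.4 and 238 after portal infusion, and controls against baseline gave -0.58 (95% interval -1.80 to 0.65).

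For the other helicase subunits, differences from MCM7 were not tested. MCM2, MCM3, MCM4 and MCM5 ranged from 20.4 to 226 normalized counts over the 13 libraries, and their groups overlapped in every comparison. MCM6, like MCM7, had its lowest value, 34.0, in portal 1, and its highest, 653, was in control 1. GINS2, a partner of the same helicase picked after its values were seen, had 20.8 and 17.9 at baseline and 43.5, 40.3 and 34.7 in controls, a log2 fold change of 1.02 (95% interval -1.09 to 3.12). CDC6 and CDT1 load the helicase. CDC6 had at most 37 reads in a library and 0 in 4 of 13, and CDT1 ranged from 4.64 normalized counts in arterial 2 to 147 in portal 4. TYMS, thymidylate synthase, ranged from 0 in control 2 to 81.3 in portal 3.

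In ischemic controls against baseline, the groups did not overlap for 4 genes that were higher in controls (CCND2, CDK4, CDK2 and GINS2) and 3 that were lower (CCNE2, PCNA and RRM1). That is 7 of 36 genes, while groups did not overlap for 31.1% of all genes tested, 14.8% higher and 16.3% lower. In infused livers against controls it was 0 of 36, against 0.564% of all genes. It was 0 of 36 also for portal infusion against controls (3.72% of all genes) and for arterial against portal infusion (1.41%).

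**Figure D3:**
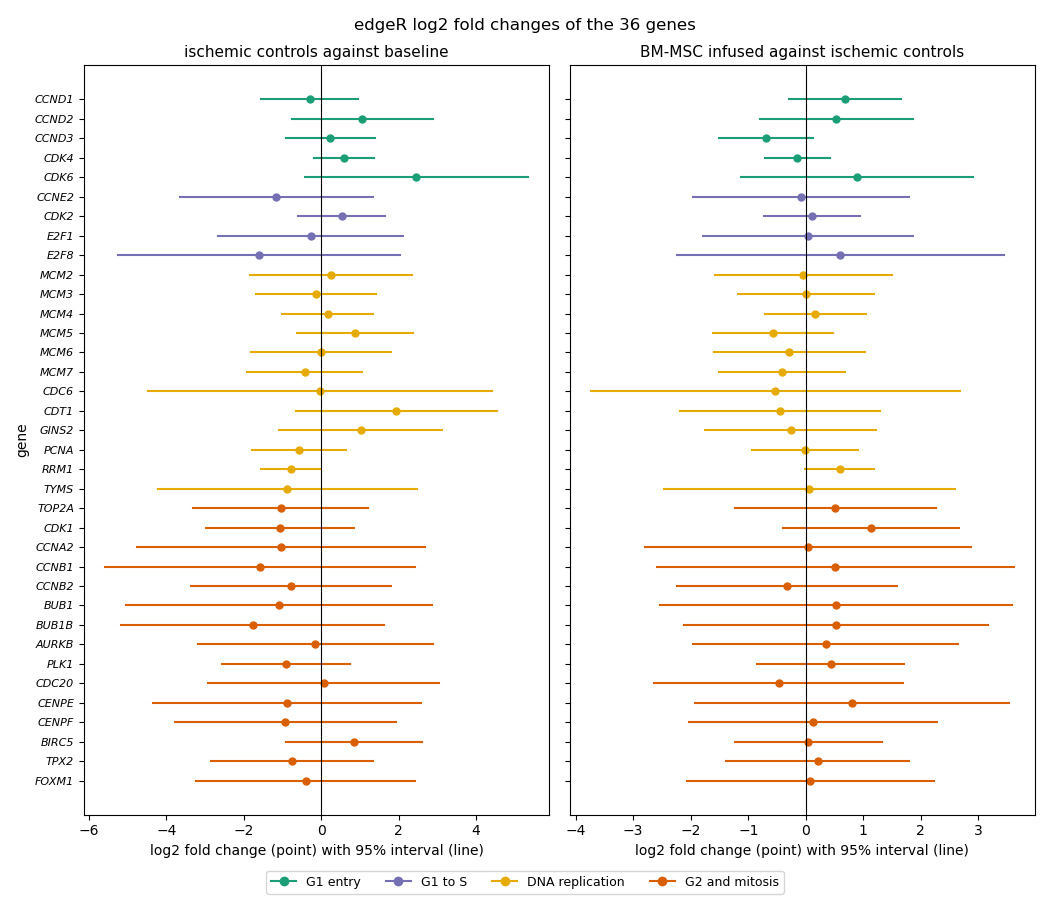
Log2 fold changes (points) with 95% intervals (lines) of the 36 genes in ischemic controls against baseline (left) and in BM-MSC infused livers against ischemic controls (right), coloured by class. In the left panel 13 of 15 genes of G2 and mitosis are below 0 and in the right panel 13 of 15 are above 0. Every left interval includes 0 or, for RRM1, ends at 0.00.

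For G2 and mitosis, libraries of the same group lay further apart than the groups did. TOP2A, the topoisomerase that untangles chromosomes (chromosome 12, 22001300 to 22028452), had 313 and 69.6 normalized counts at baseline and 112, 28.0 and 137 in controls. It had 56.2, 102, 31.6 and 332 after arterial and 28.9, 276, 112 and 144 after portal infusion. The highest value of each of these 3 groups other than controls was above every control. Controls against baseline gave a log2 fold change of -1.04 (95% interval -3.30 to 1.21, edgeR adjusted p = 0.978), which became 0.44 without baseline 1a, and infused livers against controls gave 0.51 (95% interval -1.23 to 2.26).

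TPX2, which builds the spindle (chromosome 17, 35431271 to 35484814), had 255 and 70.7 normalized counts at baseline, 150.3, 15.8 and 119 in controls, 85.7, 43.6, 80.3 and 171 after arterial infusion and 31.5, 275, 98.3 and 136 after portal infusion. Baseline 1a, arterial 4 and portal 2 were the highest of their groups for both TPX2 and TOP2A. BIRC5, survivin, a member of the chromosomal passenger complex (chromosome 12, 3747276 to 3755214), had 98.0 and 42.2 at baseline, 60.1, 224 and 106 in controls, 103, 58.5, 62.5 and 112 after arterial infusion and 524, 146, 73.2 and 135 after portal infusion. BIRC5 in controls against baseline gave 0.84 (95% interval -0.91 to 2.59). Arterial against portal infusion gave -1.32 for BIRC5 (95% interval -2.66 to 0.03, edgeR adjusted p = 1.00), and -0.50 without portal 1.

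CDK1, the kinase that drives entry into mitosis, was picked after its values were seen. It had 116 and 29.5 normalized counts at baseline, 31.6, 50.8 and 23.8 in controls, 151, 44.6, 30.8 and 81.7 after arterial infusion and 69.2, 152, 55.2 and 39.3 after portal infusion. Of the infused livers 5 of 8 were above every control, with a log2 fold change of 1.14 against controls (95% interval -0.40 to 2.67, edgeR adjusted p = 1.00) and an exact permutation p of 0.097. CDK1 in controls against baseline gave -1.07 (95% interval -2.98 to 0.83), which turned to 0.25 without baseline 1a. BUB1B, a kinase of the spindle checkpoint also picked after its values were seen, had the lowest log2 fold change of the 36 genes there, -1.77 (95% interval -5.17 to 1.63). It had 100.3 and 19.0 at baseline and 12.3 to 21.4 in controls, so that baseline 1a alone was above the controls. BUB1B in all reperfused livers against baseline gave -1.42 (95% interval -4.03 to 1.18) and 0.25 without baseline 1a.

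The other genes of this class are AURKB and PLK1, which are mitotic kinases, the cyclins CCNA2, CCNB1 and CCNB2, the checkpoint gene BUB1, CDC20, which activates the anaphase-promoting complex, CENPE and CENPF of the kinetochore, and FOXM1, a transcription factor for mitotic genes. Their groups overlapped in each of the 6 comparisons. FOXM1 had 0 to 70.5 normalized counts, AURKB 0 to 99.4 and PLK1 38.1 to 252. CENPE ranged from 0 reads in portal 1 and portal 4 to 201 normalized counts in arterial 2.

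The baseline libraries themselves differed in this class. In baseline 1a, 14 of 15 genes of G2 and mitosis were higher than in baseline 2, at a median ratio of 3.82, while 48.4% of all genes tested were higher in 1a and their median ratio was 0.992. Over all 36 genes, 29 were higher in 1a. The median deviation of the mitotic genes from their own means, on the log2 scale, was 1.67 in baseline 1a, 1.47 in portal 2 and 0.89 in arterial 4. It was between -0.61 and 0.45 in the other libraries except portal 1, with -3.63. In arterial 4, 15 of 15 mitotic genes were above their own mean, in portal 2 14 of 15 and in portal 1 5 of 15. The spread of these medians between libraries of a group (pooled SD) was 1.43 for mitosis, 0.61 for G1 entry, 0.60 for G1 to S and 0.20 for replication. Without portal 1 it was 0.76, 0.55, 0.62 and 0.21.

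**Figure D4:**
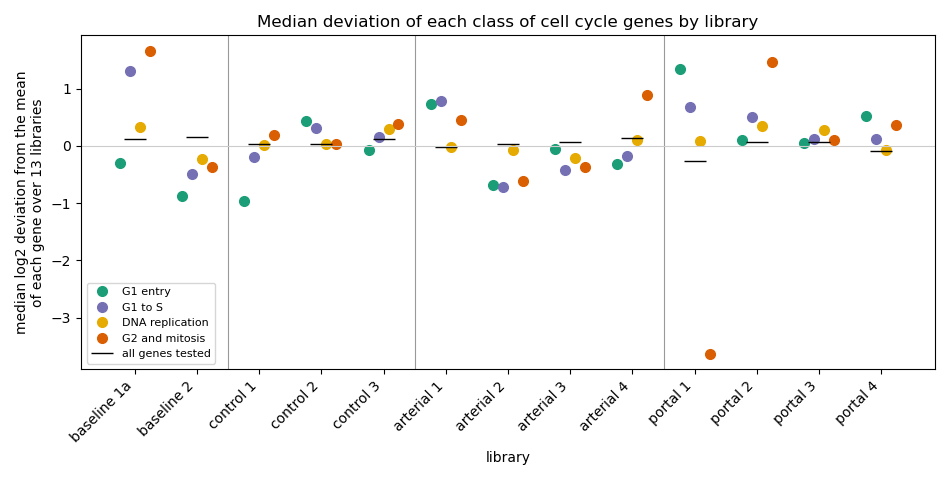
Median over the genes of each class of the log2 deviation from the gene's own mean (vertical axis) in each library (horizontal axis), with a black dash for all genes tested. The mitotic class is at 1.67 in baseline 1a, 1.47 in portal 2 and -3.63 in portal 1, and the replication class stays between -0.23 and 0.35.

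Reads were few for many of these genes. Of the 36, 14 were at 0 reads in at least 1 library, and 22 had reads in all 13. Portal 1 had 10 of the 36 at 0, portal 4 had 6, control 2 had 4, arterial 2 had 3 and arterial 1 had 2, and the other 8 libraries had none. A count of 0 allows up to 3 reads, which is 3.78 normalized counts in portal 1. Among the 27 of the 36 genes with a mean of 10 to 200 normalized counts, 37.0% were at 0 in portal 1, beside 31.8% of 6025 genes in that range of means. The shares were 22.2% and 22.5% in portal 4, 14.8% and 7.27% in control 2, 3 of 27 and 8.51% in arterial 2 and 7.41% and 15.1% in arterial 1.

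By class, the median log2 fold change in controls against baseline was 0.59 for G1 entry, -0.72 for G1 to S, -0.02 for replication and -0.91 for G2 and mitosis, with 0.0048 over all genes tested. Of the 36 genes 24 were below 0, beside 49.6% of all genes, and their median was -0.35. This order depended on baseline 1a. Without it the median of the 36 genes was 0.55 and that of the mitotic class 0.44, and without baseline 2 they were -0.84 and -1.47. The sign of the medians of the 36 genes and of the mitotic class thus rested on 1 baseline library. That of G1 entry did not turn, and its median ran from 0.44 to 0.73 with single libraries left out.

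In infused livers against controls the class medians were 0.53 for G1 entry, 0.07 for G1 to S, -0.15 for replication and 0.35 for G2 and mitosis, and the median over all genes was -0.02. With single libraries left out the median of G1 entry ran from 0.012, without arterial 1, to 1.202, without control 2. In the mitotic class 13 of 15 genes were above 0, beside 47.9% of all genes. The class median was smaller than the pooled SD between libraries of a group, which was 1.43 with portal 1 and 0.76 without it. That SD describes single libraries, from size factors and not TMM, and does not measure the error of a group difference. The mitotic median was -0.0069 without arterial 4 and 0.015 without portal 2. Arterial against portal infusion gave a median of -0.25 over the 36 genes and -0.52 over the mitotic class, with 12 of 15 below 0 beside 47.1% of all genes. The mitotic median of -0.52 was smaller in size than either SD, and it was -0.92 without arterial 4 and 0.13 without portal 2. The 95% interval lay within 1 log2 unit of 0 on either side for 3 of 36 genes in infused livers against controls (CDK4, CDK2 and PCNA), beside 17.0% of all genes, and within 2 units for 19, beside 60.1%. In controls against baseline it lay within 1 unit for 0 of 36, beside 2.21% of all genes, and within 2 units for 10, beside 38.3%, so that changes of 2-fold were not bounded for any of these genes there.

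Around these genes, 4 lists of companions were counted, with 87 of 90 genes tested. None passed the adjusted threshold in any comparison by edgeR. In controls against baseline, 3 were higher and 1 lower at an unadjusted p under 0.05, beside 3.16% and 1.21% of all genes. In infused livers against controls 0 were higher and 2 lower, beside 0.734% and 1.41%.

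Of 18 brakes of the cell cycle 16 were tested, with a median log2 fold change of 0.07 in controls against baseline. CDKN1C, the CDK inhibitor p57, had 20.1 and 34.8 normalized counts at baseline and 82.3, 417 and 138 in controls. It had 133, 149, 167 and 74.4 after arterial and 122, 57.9, 76.2 and 155 after portal infusion, so that all 11 reperfused livers were above baseline. Controls against baseline gave a log2 fold change of 2.91 (SE 0.81, 95% interval 1.18 to 4.64), an unadjusted p of 0.00272 and an edgeR adjusted p of 0.978. DESeq2 fitted to the libraries of these groups alone put CDKN1C past its adjusted threshold, which edgeR did not.

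The 17 genes of priming and growth factor signalling had a median of 0.42 in controls against baseline and -0.28 in infused livers against controls. HBEGF, a ligand of the EGF receptor, had 49.4 and 96.0 normalized counts at baseline and 189.9, 287 and 515 in controls. It had 261, 1169.9, 131 and 246 after arterial and 712, 322, 219 and 98.1 after portal infusion. All 11 reperfused livers were above both baseline libraries, and controls gave a log2 fold change of 2.19 (95% interval 0.15 to 4.23, edgeR adjusted p = 0.978). JUN, an immediate early factor, had 2008 and 4087 at baseline, 6088, 4019 and 4848 in controls, 987, 5039, 1296 and 3785 after arterial and 2601, 1673, 1009 and 1395 after portal infusion. Infused livers gave -1.26 for JUN against controls (95% interval -2.21 to -0.31, edgeR adjusted p = 1.00), and 7 of 8 were below every control. TNF, a cytokine of the priming phase, rested on 1 library. It had 30.9 and 45.4 normalized counts at baseline, 13.4, 4887 and 23.1 in controls, 25.0, 53.9, 21.9 and 5.24 after arterial and 47.8, 13.1, 38.1 and 47.8 after portal infusion. Its log2 fold change of 5.35 in controls against baseline was -1.02 without control 2, and -5.67 in infused livers against controls was 0.71 without it.

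The 28 other S phase genes had medians of 0.00 in controls against baseline and 0.12 in infused livers against controls, and none had an unadjusted p under 0.05 in either. Of 27 other mitotic genes 26 were tested, and they repeated the pattern of the mitotic class, with medians of -0.91 and 0.44 and 22 of 26 below and then 22 of 26 above 0. Both lists use the same libraries, so they are no independent support for each other. KIF20A, a kinesin of cell division, had 167 and 25.3 normalized counts at baseline, 18.2, 19.3 and 26.7 in controls, 29.4, 27.9, 32.4 and 62.9 after arterial and 62.9, 159, 49.2 and 23.3 after portal infusion. Its log2 fold change in controls against baseline was -2.18 (95% interval -4.23 to -0.12, edgeR adjusted p = 0.978), and -0.23 without baseline 1a.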

How the data were processed

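The data are raw counts per gene in 13 pig liver libraries. The authors mapped paired-end reads of poly-A selected, non-directional libraries with HISAT2 to Sscrofa11.1, the pig assembly, and the deposited values are their counts per Ensembl gene, not normalized. Each column carries the name of 1 labelled sample, which gave its group and number, and 0 columns had none. No library was a copy of another of its group.

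The 36 genes were matched by gene name. The genes, their classes and the companion and marker lists were chosen with earlier results of these data known. Values in every library are given for the 3 genes of each class with the highest mean, for up to 4 genes per comparison with the smallest unadjusted p under 0.05, and for up to 2 such genes of each companion list in controls against baseline and in infused livers against controls. Any other gene is said to be picked after its values were seen, or stands only in ranges, lists and counts.

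Differences were tested by the quasi-likelihood method of edgeR 4.0.16 in R 4.3.3, after filterByExpr and with TMM factors, in 1 fit of the 13 libraries and 4 groups, two-sided, with Benjamini-Hochberg adjustment over the 16481 genes tested. The test was also run on counts simulated from the gene means and spread of these data. Changes of 3 log2 units were set in 200 genes there, so it does not show how smaller changes are found. Intervals of 95% are approximate, from the fold change and its standard error. Normalized counts are counts divided by DESeq2 1.42.0 size factors. Single genes were also compared by two-sided exact permutation tests over libraries (scipy 1.17.1) on log2(normalized count + 1). The two-sided p doubles the smaller one-sided p. The smallest it allows is 0.2 for controls against baseline, 0.0256 for reperfused livers against baseline and 0.0286 for arterial against portal infusion. The smallest one-sided p, which the test doubles, is 0.00606 for infused livers against controls and 0.0286 for each route against controls.

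Total counts were between 18975413 and 35949178. Reads carry no molecular identifiers, so a limit set by a count of 0 covers counting error only. Positions are those of RefSeq for Sscrofa11.1. Of the 36 genes, 11 overlap another annotated gene, and without strand their reads cannot be told apart. These 11 genes are CCND2, CCND3, CCNE2, MCM4, MCM7, GINS2, CDK1, CCNA2, AURKB, PLK1 and CENPF. Alternatives were RLE normalization, no filter or at least 10 counts in every library, DESeq2, fits to the compared groups alone, the replicate number as a block and each library left out in turn. Fits without the libraries that lie apart and limma 3.58.1 voom with sample quality weights were chosen after seeing the data.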

Additional observations from a re-analysis of the deposited data

Results flagged for a closer look

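In groups of 4 livers, a library was marked where its gap to the nearest other was over 0.829 of the range of the group. This held for 5 of 82 sets of values. About 1 in 20 would be marked by chance if values were normally distributed, which normalized counts need not be. In the portal group, portal 1 stood apart with 0 reads of CCNE2, with 165 normalized counts of E2F1 and with 524 of BIRC5, and it is also the library with the fewest genes with a read, 13581. In the arterial group, arterial 2 stood apart with 1169.9 normalized counts of HBEGF and arterial 4 with 62.9 of KIF20A. No gene checked in this way had every library of one infusion route on one side of the controls and every library of the other route on the opposite side.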

How the results depend on the processing

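None of the 36 genes passed an adjusted p of 0.05 in any of 136 fits, which are 23 settings over the comparisons each could be run for. Over all genes, edgeR called 0 in each comparison, while DESeq2 over all libraries called 5 in controls against baseline, 14 in reperfused livers against baseline, 1 in infused livers against controls, 0 and 4 for arterial and portal infusion against controls and 1 for arterial against portal infusion. DESeq2 over the compared groups called 166 in controls against baseline, limma voom 111 in reperfused livers against baseline, and edgeR with no filter between 5 and 30 per comparison.

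With at least 10 counts in every library, which 19 of the 36 genes had, their median log2 fold change was 0.16 in controls against baseline and 0.19 in reperfused livers against baseline, in place of -0.35 and -0.33. With single libraries left out, the medians ran from -0.84 to 0.55 and from -0.66 to 0.77, the high ends being without baseline 1a. Where baseline 1a or 2 is left out, the remaining baseline library is assumed to vary like the other groups.

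For single genes with single libraries left out, controls against baseline ran from -0.85 to 0.52 for CCND1, -1.77 to 0.25 for CDK1, -1.78 to 0.44 for TOP2A and -1.02 to 6.01 for TNF. Infused livers against controls ran from -0.0069 to 0.90 for TOP2A and -6.33 to 0.71 for TNF. BUB1B in reperfused livers against baseline ran from -2.20 to 0.25.

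With the replicate block, CCND1 in controls against baseline turned to 0.045, and CDK6 and TOP2A in infused livers against controls to -0.36 and -0.084. The medians of the 36 genes were then -0.23 and -0.12 in these comparisons, and 0 genes were called. The numbers were not seen to pair the libraries, but this check cannot settle it for baseline. Deviations of 2 libraries from their mean mirror each other, as with correlations with control 1 of -0.084 for baseline 1a and 0.084 for baseline 2. Of 16 pairs with the same number, 5 had a correlation of deviations over 0.1, with a range of -0.38 to 0.40, and 5 of 13 libraries correlated best with their own number.

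Of the fits chosen after seeing the data, leaving out control 2, arterial 1, portal 1 and portal 4 gave -0.023 for CDK6 and 0.53 for TNF in infused livers against controls and -1.04 for TNF in controls against baseline. limma voom gave -0.41 for CDK6 in the former and -0.11 for TNF in the latter. The cause was not tested. With 2 to 4 libraries a group, changes of 2-fold were bounded for few of these genes.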
